A study of Mus musculus with 6 samples.

Results

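Growth factor ligands are secreted or membrane-anchored proteins that carry signals between cells of the kidney, and 10 of their genes were examined here: *Egf*, *Nrg4*, *Pdgfa*, *Pdgfc*, *Pdgfd*, *Fgf1*, *Vegfb*, *Igf1*, *Hgf* and *Ctgf*. They were taken from a fixed list of gene symbols, and a gene entered if the deposited expression table has a row for it. This held for 8 of the 10 genes, among 12125 genes listed. *Hgf* and *Ctgf*, also under its newer symbol *Ccn2*, were not analysed here. The table covers 3 libraries of Trf1+/+ and 3 of Trf1flox/flox mice, named below by genotype and replicate. *Trf1* is the gene *Terf1*, which encodes a telomere-binding protein of the shelterin complex. All 6 mice carried Col1a2-CreERT2, a tamoxifen-dependent Cre recombinase under a promoter of collagen-producing cells, together with a reporter that Cre switches on (Katushka fluorescent protein, KFP). Males and females of 6 to 8 weeks of age entered the experiment, and both genotypes received tamoxifen by intraperitoneal injection 3 times a week for 8 weeks. Each library was made from 500 kidney cells sorted with antibodies against CD29, an integrin, and KFP. The sources used here do not give the sex of a single mouse, and the replicate numbers were given here, name the libraries only and pair no mice.

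Apart from *Ctgf*, which encodes a matricellular protein, these genes encode ligands of receptor tyrosine kinases on the same or a neighbouring cell. The receptor passes the signal on through adaptors such as GRB2 to the RAS, MAP kinase and AKT kinases. In the kidney, EGF is made as a membrane precursor by the thick ascending limb and the distal convoluted tubule, where it is known for its role in magnesium transport. PDGF ligands are best known as mitogens of fibroblasts and pericytes, VEGF-B acts on endothelium, and IGF-1 and FGF-1 have receptors on many cell types.

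The libraries did not look alike, and several values below rest on this. Reads on listed genes came to 10263382 to 12248797 per library, and a single read was worth 0.689 to 1.09 normalized counts. A normalized count is the number of reads of a gene divided by 1 size factor per library. The library labelled Trf1+/+ replicate 1 had a median of 13.4 normalized counts and the other 5 had medians of 118 to 148. Of the genes with a mean of at least 100 in the other libraries, 12.9% were at 0 in that library and 9.01% in Trf1flox/flox replicate 2, against 0.932% to 3.68% in each of the remaining 4. *Terf1* had 0.891, 253 and 235 normalized counts over the Trf1+/+ replicates and 110.0, 7.65 and 12.4 over the Trf1flox/flox replicates, so the first value, 1 read, goes against its label. Trf1flox/flox replicate 1, with 128 reads of *Terf1*, lay above the other Trf1flox/flox libraries, which had 7 and 18 reads, and under the other Trf1+/+ libraries. All groups are used as labelled.

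The cell type named in the labels, fibroblasts, was checked against markers. Of 18 fibroblast markers 3 have a row, *Col1a2*, *Dcn* and *Fn1*, and their summed normalized count was 1.66 to 105 over the Trf1+/+ replicates and 15.5 to 102 over the Trf1flox/flox replicates. *Col1a2*, whose promoter drives the Cre, had 0 to 2 reads in every library. All 12 markers of the loop of Henle and distal tubule have a row, with sums of 92535 to 147997 over the Trf1+/+ replicates and 68136 to 169811 over the Trf1flox/flox replicates. All 16 proximal tubule markers have a row too, with sums of 25449 to 112818 and 35032 to 142416. The data therefore go against the label, and the libraries are called sorted kidney cells here. Endothelial markers (3 of 12 listed) summed to 8.87 to 517 and 54.4 to 463, collecting duct markers (12 of 13) to 851 to 13747 and 2060 to 20123, and pericyte markers (3 of 9) to 0 to 79.8 and 26.2 to 280. Podocyte markers (1 of 7) summed to 0 to 0.985 and 0 to 103, immune markers (7 of 14) to 293 to 1478 and 186 to 2581, and erythroid markers (5 of 5) to 238 to 10472 and 121 to 52403. In such libraries fewer cells of a type and less RNA per cell cannot be told apart.

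**Figure D1:**
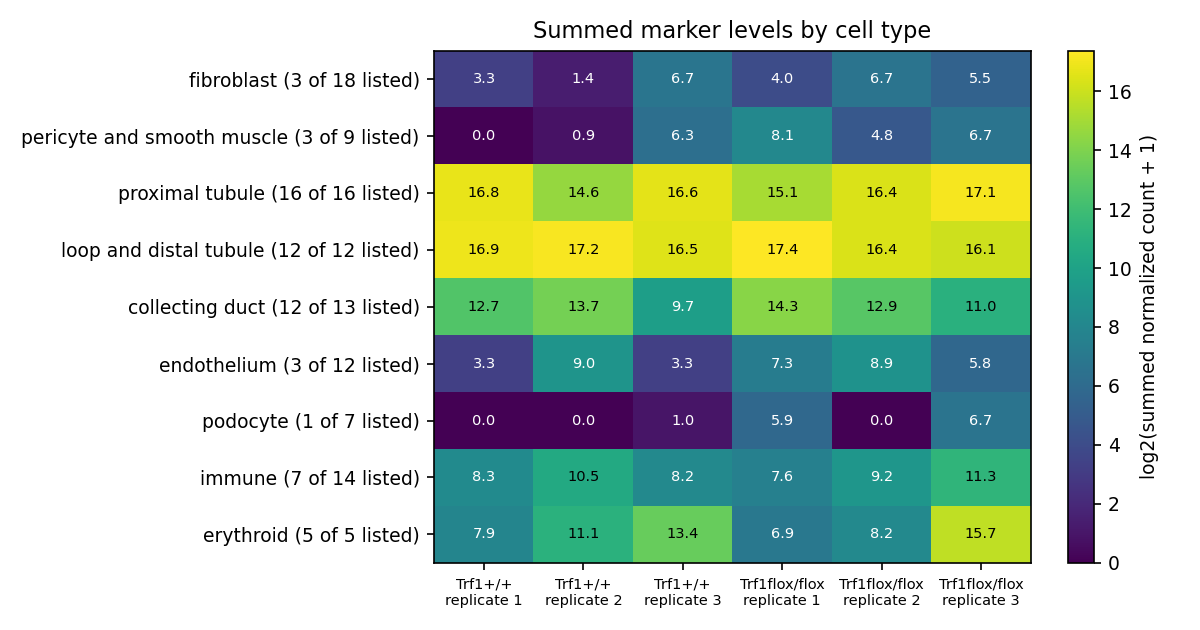
Summed normalized counts of the listed markers of 9 cell types (rows) in each of the 6 libraries (columns), as log2(sum + 1), with the value in each cell. The proximal tubule and the loop and distal tubule rows are the highest in every library, and the fibroblast row is low in all 6.

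The stretches before the start of *Egf* and *Pdgfc* are shown because these genes mark the ends of the data, the steadiest ligand and the ligand with the widest gap between the genotypes. They are the 250 bases upstream of the start of transcription in RefSeq (GRCm38.p6), read on the strand of the gene. Capitals mark matches, on either strand, to 4 motifs picked with the sequences in view. They are the TATA-type motifs TATAA and its variant TTTAAA, the CCAAT box (searched as CCAAT) and the GC box (searched as GGGCGG), and no matches overlap here.
Egf, chr3:129755323-129755572, minus strand: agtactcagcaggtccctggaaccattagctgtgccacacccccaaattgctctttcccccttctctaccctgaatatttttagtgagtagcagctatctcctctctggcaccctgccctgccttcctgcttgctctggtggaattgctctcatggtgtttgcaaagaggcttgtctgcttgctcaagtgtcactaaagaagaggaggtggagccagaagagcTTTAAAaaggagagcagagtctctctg
Pdgfc, chr3:81036166-81036415, plus strand: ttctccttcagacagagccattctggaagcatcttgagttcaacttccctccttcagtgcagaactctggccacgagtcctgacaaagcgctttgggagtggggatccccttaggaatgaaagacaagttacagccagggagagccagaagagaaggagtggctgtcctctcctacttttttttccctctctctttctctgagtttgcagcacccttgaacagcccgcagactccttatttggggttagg
The *Egf* stretch held 1 match, TTTAAA, which starts at position -27 (-1 is the last base before the start). Of 32851 stretches of the same length, 12.1% hold TTTAAA, 22.8% TATAA, 33.9% CCAAT and 32.7% GGGCGG. The *Pdgfc* stretch held none of the 4 motifs. *Egf* had 0 CpG dinucleotides in its stretch and *Pdgfc* had 3, and the median over all stretches was 6. RefSeq gives *Egf* another start inside the gene, 30230 bases from the GENCODE start, whose stretch held 15 CpG dinucleotides and none of the motifs. The stretch printed is the one at the start of the whole gene, 6 bases from that of GENCODE. *Vegfb*, a small gene on chromosome 19 (6982473 to 6987651), had 26 CpG dinucleotides and 4 matches to GGGCGG in its own stretch. Stretches of *Vegfb*, *Pdgfd*, *Igf1*, *Pdgfa* and *Nrg4* were searched as well and are not printed. The RefSeq starts used lay 0 bases from the GENCODE start for *Vegfb*, 98 for *Pdgfd* and 2846 for *Igf1*. For *Pdgfa* they lay 2426 and 3089 bases from it, and for *Nrg4* 43219 bases.

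By level, *Egf* stood above the other ligands in every library, and the order below it was mostly unclear. Reads per kilobase of exon and per 1e+06 listed reads, which compare genes of different length, had a median over the 6 libraries of 168 for *Egf*, 15.4 for *Fgf1*, 15.1 for *Vegfb*, 1.96 for *Igf1*, 1.56 for *Pdgfa*, 1.47 for *Pdgfc*, 0.819 for *Pdgfd* and 0.0436 for *Nrg4*. *Egf* was above *Fgf1* in 6 of 6 libraries. *Fgf1* was above *Vegfb* in 3 of 6, so this pair has no order, and *Vegfb* was above *Igf1* in 5 of 6. *Igf1* was above *Pdgfa* in 3, *Pdgfa* above *Pdgfc* in 3, *Pdgfc* above *Pdgfd* in 2 and *Pdgfd* above *Nrg4* in 4 of 6 libraries, and none of these neighbours was separated. Within Trf1+/+ the median of *Pdgfc* was 0, and within Trf1flox/flox it was 4.02.

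**Figure D2:**
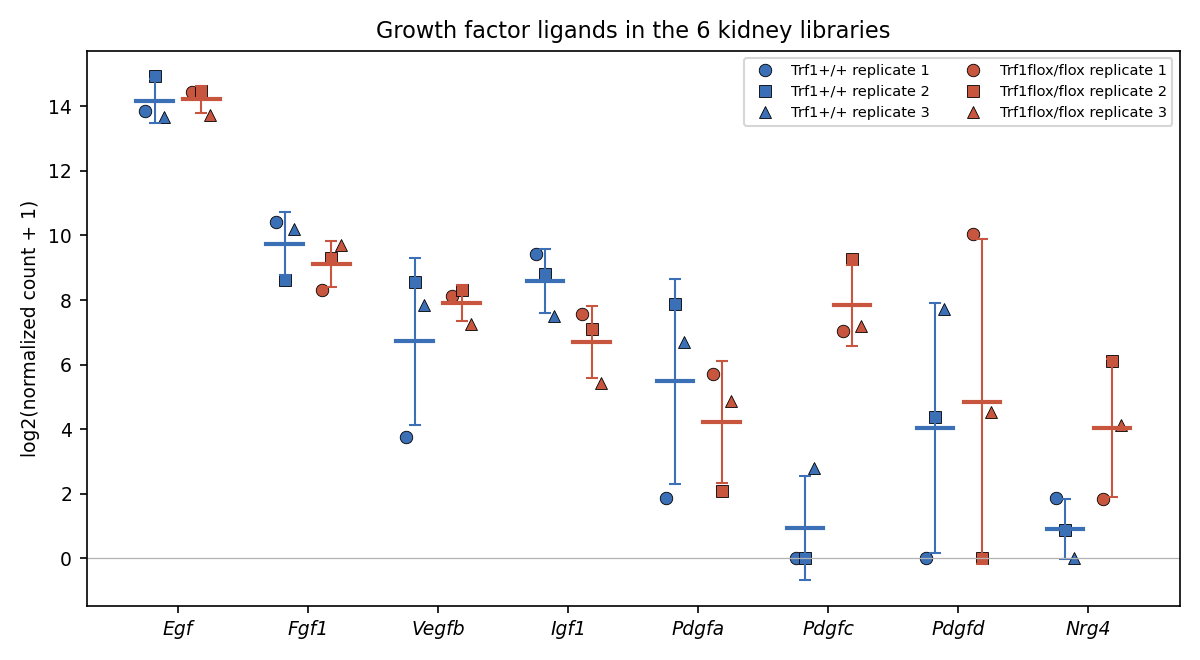
The 8 ligands in the 6 libraries on the y axis as log2(normalized count + 1), ordered by their level per length, with Trf1+/+ in blue and Trf1flox/flox in red. Symbols are single libraries, thick bars are group means and error bars are SD (n = 3). The 2 colours are apart for *Pdgfc* and overlap for the other ligands.

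*Egf*, the founding ligand of the EGF receptor family (ENSMUSG00000028017, chromosome 3, 129677565 to 129755316, minus strand), was abundant in every library. It had 14774, 31332 and 13072 normalized counts over the Trf1+/+ replicates and 21993, 22856 and 13692 over the Trf1flox/flox replicates. The groups overlapped, and among all genes listed *Egf* ranked between 20 and 70 in each library. Trf1+/+ averaged 19726 ± 10087 (SD, n = 3) and Trf1flox/flox 19514 ± 5060 (SD, n = 3). In log2(normalized count + 1), the scale of the limma differences below, the difference of Trf1flox/flox minus Trf1+/+ was 0.06 (standard error 0.44, adjusted p = 0.992 from limma), under its standard error. *Egf* was abundant also in the library labelled Trf1+/+ replicate 1, which had many genes at 0. Within Trf1+/+ its values ranged from 13072 to 31332. Exons of 2 genes on the other strand, *6330410L21Rik* and *Gm42697*, overlap those of *Egf*, and the libraries keep no strand.

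*Egf* stood beside the marker sum of the tubule segments that are known to make it. It equalled 11.8%, 21.2% and 14.1% of the summed loop and distal markers over the Trf1+/+ replicates and 13.0%, 27.2% and 20.1% over the Trf1flox/flox replicates, and these shares overlapped. *Umod*, which encodes uromodulin of the thick ascending limb, had 33502, 51495 and 27793 normalized counts over the Trf1+/+ replicates and 80777, 35062 and 21896 over the Trf1flox/flox replicates. The 5 genes of mean level 100 or more whose mean-centred log2 values lay nearest to those of *Egf* over the 6 libraries, of 7175 compared, were *Map7*, *Parl*, *Tpd52*, *Mfsd4a* and *Zmat5*. *Map7* encodes a microtubule-associated protein and *Parl* a protease of mitochondria. Their mean absolute differences from *Egf* were 0.10, 0.16, 0.16, 0.17 and 0.18 on the log2 scale, where *Egf* itself deviated from its own mean by 0.43.

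*Nrg4*, the neuregulin that binds ERBB4 (ENSMUSG00000032311, chromosome 9, 55220222 to 55326844, minus strand), was near the floor. It had 2.67, 0.829 and 0 normalized counts over the Trf1+/+ replicates and 2.58, 67.8 and 16.5 over the Trf1flox/flox replicates. The groups met at Trf1+/+ replicate 1 and Trf1flox/flox replicate 1, which had 3 reads each and differed by their size factors, and 4 of the 6 libraries had at most 3 reads. After upper quartile scaling, and without either of these libraries, the Trf1flox/flox values were all above the Trf1+/+ values. *Nrg4* did not reach 10 normalized counts in 3 libraries and was not tested. A gene with 0 reads may hold up to 3 reads' worth by counting error, which is 2.07 to 3.28 normalized counts over these libraries and covers counting error only. Exons of *Fbxo22*, a gene on the other strand that is listed too, overlap those of *Nrg4*.

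The PDGF ligands varied most. *Pdgfc*, which encodes a latent ligand of PDGF receptor alpha that proteases activate (ENSMUSG00000028019, chromosome 3, 81036416 to 81214040, plus strand), had 0, 0 and 5.91 normalized counts over the Trf1+/+ replicates and 130, 621 and 145 over the Trf1flox/flox replicates. All 3 Trf1flox/flox libraries lay above all 3 Trf1+/+ libraries, and the lowest of them was 21.9-fold above the highest Trf1+/+ value. There were 6 reads in the Trf1+/+ libraries together and 929 over the Trf1flox/flox replicates. Exons of *Gm16000*, a gene on the other strand that has no row, overlap those of *Pdgfc*, and the libraries keep no strand. The log2 difference was 6.90 (standard error 2.22, unadjusted p = 0.00920, adjusted p = 0.970 from limma), so *Pdgfc* did not pass the test across all genes. *Pdgfc* passed the filter on low values through the Trf1flox/flox libraries alone and so had to differ once tested.

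The call for *Pdgfc* turned on the tool. limma was run in 4 versions with the data in view, because the written design did not say whether to fit a mean-variance trend or to use robust estimation. The adjusted p of *Pdgfc* was 0.970 with the trend, 0.986 with trend and robust estimation, 0.163 with neither and 0.183 with robust estimation alone, and the version with the trend is the one reported throughout. edgeR's quasi-likelihood test on the recovered reads gave a log2 difference of 7.10 with an adjusted p of 0.999, and DESeq2 gave 7.26 with an adjusted p of 0.0110. *Pdgfc* was 1 of 58 genes that DESeq2 called, 0.604% of those with an adjusted p, and the only ligand among them. Of the 8 ligands, *Nrg4* was not tested, and DESeq2 gave *Pdgfd* a log2 difference of 2.21 but no p. Over all 9966 genes tested, 18 were under 10 normalized counts in every Trf1+/+ and over 100 in every Trf1flox/flox library, and 2 had the opposite pattern. Genes of both kinds pass the filter only through the group in which they are high. In Trf1+/+ replicate 1, 3431 of the tested genes had at most 3 reads, against 247 to 1989 in each other library. The part of this in the 2 counts was not tested, and nothing is read from them.

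The genes nearest to *Pdgfc* in pattern, by the measure used for *Egf*, were *Myo1e*, *Orc2*, *Parn*, *Ttll4* and *Trim39*, with mean absolute differences of 0.52, 0.83, 0.84, 0.88 and 0.89 on the log2 scale. *Myo1e* encodes a myosin, *Orc2* a subunit of the origin recognition complex and *Parn* a poly(A) ribonuclease. *Myo1e* had 0.891, 0.829 and 41.4 normalized counts over the Trf1+/+ replicates and 244, 608 and 297 over the Trf1flox/flox replicates. Like *Pdgfc*, it was low in the Trf1+/+ libraries and highest in Trf1flox/flox replicate 2, the library in which 9.01% of otherwise well-covered genes were at 0. *Myo1e* was picked for its nearness over these same values, so the likeness is no separate result.

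*Pdgfd*, which encodes a ligand of PDGF receptor beta (ENSMUSG00000032006, chromosome 9, 6168584 to 6378850, plus strand), had 0, 19.9 and 211 normalized counts over the Trf1+/+ replicates and 1054, 0 and 22.1 over the Trf1flox/flox replicates. Both genotypes held a library at 0 and the groups overlapped, with Trf1flox/flox replicate 1 above every other library. The log2 difference was 0.82 (standard error 3.01, adjusted p = 0.992 from limma). It was -1.20 without Trf1+/+ replicate 1 and -1.77 without Trf1flox/flox replicate 1, so its sign rested on single libraries. *Pdgfa*, the classical ligand of PDGF receptor alpha (ENSMUSG00000025856, chromosome 5, 138976014 to 138997370, minus strand), had 2.67, 234 and 103 normalized counts over the Trf1+/+ replicates and 51.6, 3.28 and 28.3 over the Trf1flox/flox replicates. Its groups overlapped through 3 reads in Trf1+/+ replicate 1, and without that library both remaining Trf1+/+ values were above all 3 Trf1flox/flox values. The log2 difference was -1.26 with all libraries (standard error 2.49, adjusted p = 0.983 from limma) and -3.06 without Trf1+/+ replicate 1. It shrank to -0.06 without Trf1+/+ replicate 2 and to -0.19 without Trf1flox/flox replicate 2, so its size rested on single libraries. Exons of *6330403L08Rik*, a gene on the other strand that has no row, overlap those of *Pdgfa*.

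The leading PDGF gene differed from library to library. By level per length, *Pdgfa* made up 92.0% of the 4 PDGF ligands in Trf1+/+ replicate 2, and *Pdgfd* made up 50.3% in Trf1+/+ replicate 3. *Pdgfd* held 88.8% in Trf1flox/flox replicate 1, *Pdgfc* 98.9% in replicate 2 and 63.7% in replicate 3. Trf1+/+ replicate 1 had 3 reads of the family in all, every one on *Pdgfa*, against 284 to 1439 reads in the other libraries. The share of *Pdgfc* was 0% to 0.874% over the Trf1+/+ replicates and 6.77% to 98.9% over the Trf1flox/flox replicates. The receptors of these ligands, *Pdgfra* and *Pdgfrb*, were not analysed here.

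**Figure D3:**
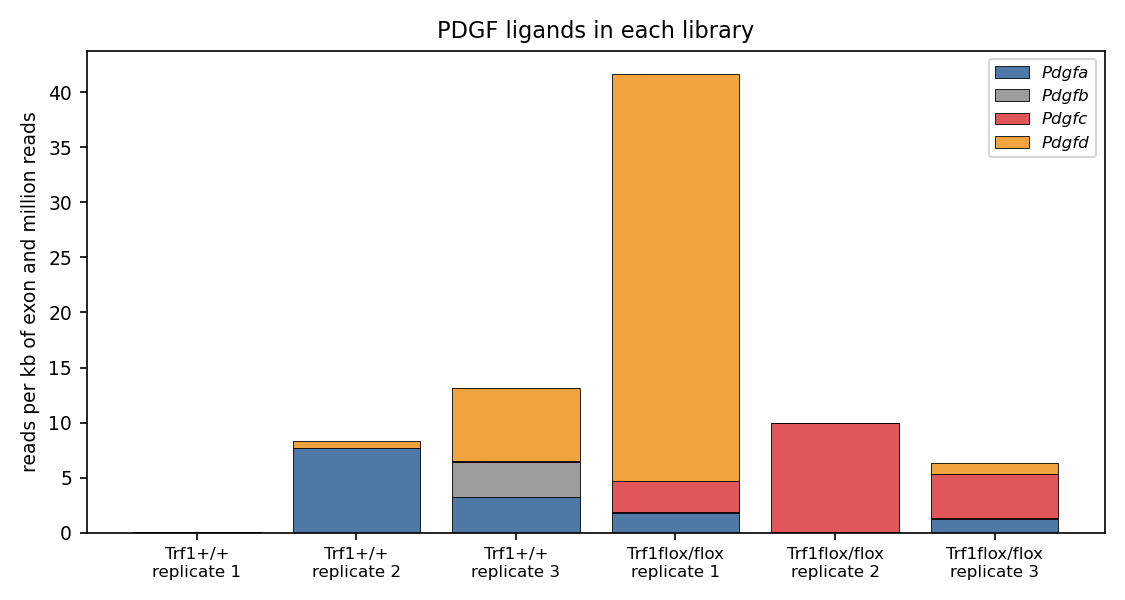
Level of the 4 PDGF ligands in each library, stacked, in reads per kilobase of exon and 1e+06 listed reads. The tallest stack, 41.7 in Trf1flox/flox replicate 1, is mostly *Pdgfd*, and the stack of Trf1+/+ replicate 1, at 0.0785, is too low to be seen.

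*Fgf1*, which encodes a fibroblast growth factor that binds all FGF receptors (ENSMUSG00000036585, on chromosome 18), was well covered. It had 1356, 394 and 1185 normalized counts over the Trf1+/+ replicates and 320, 635 and 838 over the Trf1flox/flox replicates. Trf1+/+ replicate 2 lay among the Trf1flox/flox values, and the other Trf1+/+ libraries lay above them. The log2 difference was -0.63 (standard error 0.71, adjusted p = 0.970 from limma) and stayed negative in all 15 alternatives, from -1.19 to -0.24 with single libraries left out.

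*Vegfb*, which encodes a ligand of the VEGF receptor FLT1 (ENSMUSG00000024962), had 12.5, 375 and 230 normalized counts over the Trf1+/+ replicates and 280, 319 and 152 over the Trf1flox/flox replicates. The lowest value was that of Trf1+/+ replicate 1, and the other 5 libraries overlapped. The log2 difference was 1.19 (standard error 1.47, adjusted p = 0.970 from limma) with all libraries and -0.30 without that replicate. *Flt1* and *Kdr*, receptors of the VEGF family, were not analysed here.

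*Igf1*, which encodes insulin-like growth factor 1 (ENSMUSG00000020053, chromosome 10, 87858265 to 87937042, plus strand), had 689, 449 and 179 normalized counts over the Trf1+/+ replicates and 190, 136 and 42.0 over the Trf1flox/flox replicates. The groups met at 1 pair of libraries, with the lowest Trf1+/+ value just under the highest Trf1flox/flox value. Trf1+/+ averaged 439 ± 255 (SD, n = 3) and Trf1flox/flox 122 ± 74.8 (SD, n = 3). The log2 difference was -1.88 (standard error 1.14, adjusted p = 0.970 from limma) and ranged from -2.42 to -1.24 with single libraries left out. The groups were apart after upper quartile scaling, without Trf1+/+ replicate 3 and without Trf1flox/flox replicate 1.

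Of the ligands, 7 of the 8 ligands were tested and limma called 0, at an adjusted p under 0.05. It called 0 of all 9966 genes (0%), 312 of which had an unadjusted p under 0.05, and edgeR also called 0, with 196 genes at an unadjusted p under 0.05. Of the 7 tested ligands 4 were higher and 3 lower in Trf1flox/flox, with a median log2 difference of 0.06 beside 0.20 over all tested genes. The groups were apart for 1 tested ligand, *Pdgfc*, which was higher and was also the 1 ligand with an unadjusted p under 0.05. Over all tested genes 5.35% were apart and higher and 3.33% apart and lower, and 2.1% had an unadjusted p under 0.05 and were higher and 1.03% lower. Because *Pdgfc* reached the test through the group in which it was high, nothing is read from its count against these shares.

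**Figure D4:**
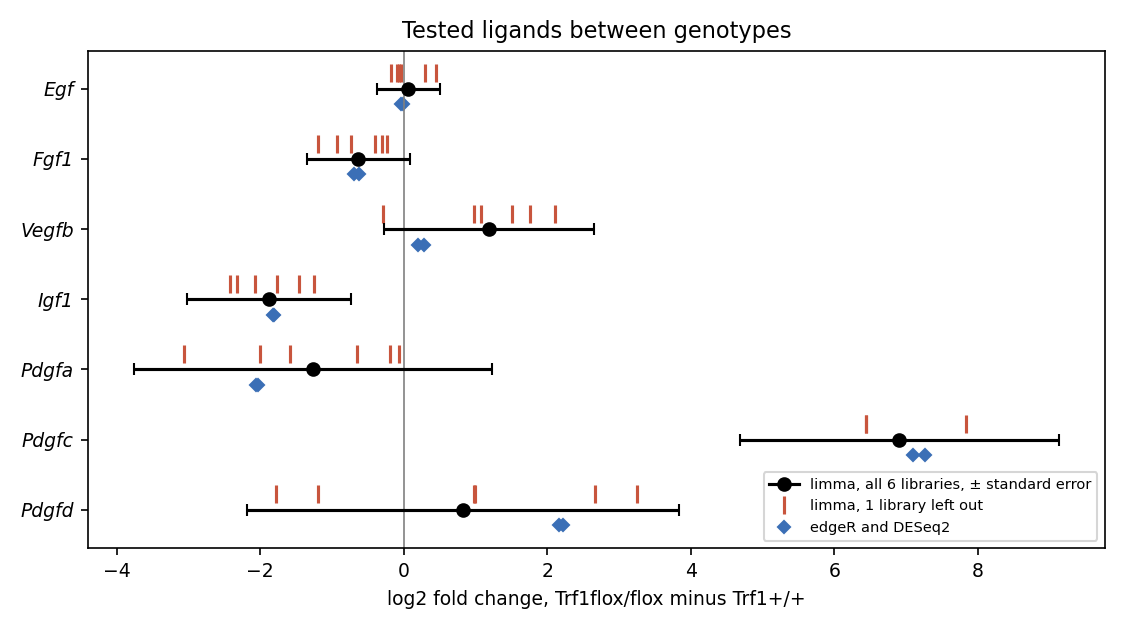
Log2 fold change of the 7 tested ligands (x axis, Trf1flox/flox minus Trf1+/+), with the limma estimate and its standard error in black, limma with 1 library left out in red and edgeR and DESeq2 in blue. *Pdgfc* lies far to the right under every tool, *Egf* stays near 0, and the red marks of *Pdgfd* and *Vegfb* fall on both sides of 0.

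Other ligands of the same families were mostly low. Of 42 further ligand genes 9 have a row, 8 were tested, with 4 higher and 4 lower. limma called 0, and the groups overlapped for all 8 tested. *Fgf9*, a ligand of FGF receptors, had 1024, 286 and 675 normalized counts over the Trf1+/+ replicates and 803, 419 and 185 over the Trf1flox/flox replicates. *Vegfd* had 466, 135 and 236 over the Trf1+/+ replicates and 0, 251 and 115 over the Trf1flox/flox replicates, and *Vegfa*, the main endothelial growth factor, had 27.6, 111 and 0.985 and 174, 61.2 and 68.9. All 3 overlapped between genotypes. *Nrg1*, a ligand of ERBB3 and ERBB4, had 0.891, 192 and 214 over the Trf1+/+ replicates and 195, 127 and 64.8 over the Trf1flox/flox replicates. *Hbegf*, a ligand of the EGF receptor, had 0, 41.4 and 167 and then 0.859, 0 and 18.6, and *Btc*, another, had 1.78, 0.829 and 90.7 and then 359, 0 and 22.7. These values again overlapped, with both genotypes near 0 in some libraries. *Ccn1*, a matricellular relative of *Ctgf* found under its newer symbol, had 0, 351 and 124 over the Trf1+/+ replicates and 157, 0 and 0 over the Trf1flox/flox replicates. *Pdgfb* reached 132 in Trf1+/+ replicate 3 and at most 1 read elsewhere, and *Fgf2* stayed between 0 and 21.7.

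The receptors of the listed ligands were present for the EGF, FGF, IGF and HGF families. Of 22 receptor genes 15 have a row and 12 were tested, 8 of them higher and 4 lower in Trf1flox/flox, with a median log2 difference of 0.24, and limma called 0. *Erbb4*, the receptor of neuregulins, had 272, 391 and 326 normalized counts over the Trf1+/+ replicates and 704, 240 and 206 over the Trf1flox/flox replicates, and its log2 difference was 0.00 (standard error 0.87). *Egfr*, the receptor of EGF, had 0, 5.80 and 105 and then 0.859, 3.28 and 136. The receptor was thus near the floor in several libraries in which its ligand *Egf* ranked high. *Erbb2*, which has no ligand of its own, had 47.2, 46.4 and 295 over the Trf1+/+ replicates and 651, 169 and 161 over the Trf1flox/flox replicates, and *Erbb3* had 0, 0.829 and 252 and then 6.87, 64.5 and 73.7.

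*Igf1r*, the receptor of IGF-1, was the best covered, with 1165, 658 and 914 normalized counts over the Trf1+/+ replicates and 1596, 1028 and 1023 over the Trf1flox/flox replicates (log2 difference 0.42, standard error 0.55, adjusted p = 0.975 from limma). *Insr*, the insulin receptor, had 116, 214 and 504 and then 145, 499 and 193. Both overlapped between genotypes. *Met*, the receptor of HGF, had 77.5, 594 and 416 over the Trf1+/+ replicates and 821, 1357 and 715 over the Trf1flox/flox replicates and was apart (log2 difference 1.79, standard error 0.86, adjusted p = 0.970 from limma). *Fgfr2*, a receptor of FGF-1, had 341, 232 and 118 over the Trf1+/+ replicates and 18.9, 0 and 79.2 over the Trf1flox/flox replicates and was apart in the other direction (log2 difference -4.18, standard error 2.29, adjusted p = 0.970 from limma). Neither passed the test, and of all tested genes 5.35% were apart and higher and 3.33% apart and lower. *Fgfr1* had 131, 82.9 and 0.985 and then 148, 31.7 and 170.2, *Fgfr3* had reads only in Trf1flox/flox replicate 3, and *Fgfr4* stayed between 0 and 35.1. *Nrp1*, a coreceptor of VEGF ligands, had 2.67, 558 and 188 over the Trf1+/+ replicates and 779, 215 and 145 over the Trf1flox/flox replicates.

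**Figure D5:**
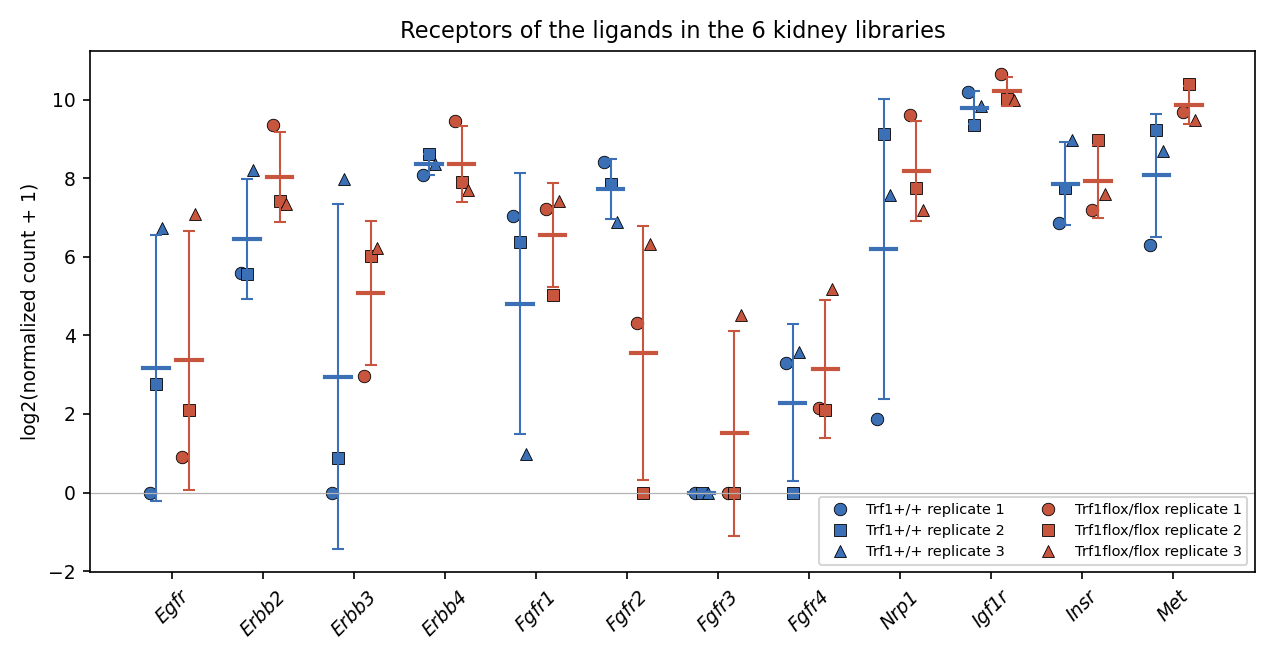
The 12 named receptors in the 6 libraries as log2(normalized count + 1), with Trf1+/+ in blue and Trf1flox/flox in red, thick bars for group means and error bars for SD (n = 3). *Fgfr2* and *Met* are the receptors whose groups are apart, in opposite directions.

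Genes that release, activate or carry the ligands gave 0 calls too. Of 30 such genes 17 have a row and 15 were tested, 13 higher and 2 lower in Trf1flox/flox, with a median log2 difference of 0.83. Over all tested genes 5571 were higher and 4395 lower, with a median of 0.20. In the library labelled Trf1+/+ replicate 1, 6 of the 15 genes had at most 3 reads, against 0 or 1 of them in each other library, and the part of this in the split was not tested. *Spint1*, an inhibitor of the proteases that activate HGF, was the 1 gene apart, with 45.4, 13.3 and 379 normalized counts over the Trf1+/+ replicates and 398, 611 and 404 over the Trf1flox/flox replicates. Of 34 adaptors and kinases downstream of the receptors 30 were tested, 14 higher and 16 lower, with 5 apart (2 higher and 3 lower) and 0 called. The share of all tested genes that were apart was 5.35% higher and 3.33% lower, so single genes that were apart are given as values only. *Akt2*, a kinase of survival and insulin signals, had 0.891, 60.5 and 0.985 and then 392, 346 and 193, and *Grb2*, the adaptor to RAS, had 1.78, 24.0 and 55.2 and then 400.4, 133 and 154. *Sos2*, which activates RAS, went the other way, with 622, 222 and 164 over the Trf1+/+ replicates and 86.8, 94.0 and 110 over the Trf1flox/flox replicates.

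Feedback inhibitors gave a similar split. Of 29 genes 22 have a row and 15 were tested, 8 higher and 7 lower, with a median log2 difference of 0.04 and 0 called by limma. *Nf1*, which switches RAS off, was the 1 gene apart, with 6.23, 13.3 and 55.2 normalized counts over the Trf1+/+ replicates and 358, 1149 and 143 over the Trf1flox/flox replicates. Its log2 difference was 4.44 (standard error 1.78, adjusted p = 0.970 from limma), and DESeq2 gave 4.46 with an adjusted p of 0.0382. Among all tested genes 5.35% were apart and higher and 3.33% apart and lower. Of the kinases and adaptors above, *Grb2* had 2 reads in the library labelled Trf1+/+ replicate 1, and *Akt2* had 1 read there and 1 in Trf1+/+ replicate 3.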

How the data were processed

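The 10 ligands and the lists of receptors, carriers, kinases and inhibitors were written from general knowledge, with earlier results of these data known. RNA of 500 sorted cells per mouse was primed with oligo(dT), extended by template switching, amplified by PCR and sequenced without strand and without molecular identifiers. The authors trimmed the reads, aligned them with TopHat 2.0.10 and Bowtie 1.0.0 and counted them with HTSeq 0.6.1. The study's methods name GRCm38 and GENCODE, while the labels name GRCm39. Positions and exon lengths here are those of GENCODE M21 on GRCm38, which holds 11911 of the 12125 symbols. The sources do not state the strand setting of the counting, so overlapping genes on opposite strands cannot be told apart. The submitters' processing notes also name DESeq2, without its role, and the study's methods state no test or threshold for single genes.

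The deposited values are normalized counts, a signal in which the authors divided whole read counts by 1 size factor per library. All values (100%) were whole multiples of 1 read within 0.001 of a read, so the reads were recovered. The 9966 genes that reached 10 normalized counts in 3 or more libraries were tested with limma 3.58.1 (R 4.3.3) on log2(value + 1), with Benjamini-Hochberg adjustment over all of them. A fold change on this scale understates that of low genes. The written design named limma but neither a mean-variance trend nor robust estimation. 4 versions were run after the data were seen, and the one with a trend is reported. edgeR 4.0.16 and DESeq2 1.42.0 on the recovered reads, other pseudocounts (0.5 and 5), no filter, upper quartile scaling and leaving out each library were alternatives. All tests were two-sided. limma with and without the trend, edgeR and DESeq2 were first tested on simulated data. The robust versions and the other settings were not.

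Besides the ligands, the text names *Terf1*, the main receptors, every other ligand of the families, up to 4 genes of each remaining list with the largest differences among those whose groups were apart, and the 5 genes most like *Egf* and *Pdgfc*. *Umod* and the reads of *Col1a2* were picked afterwards. Libraries of a genotype were taken as separate mice, as the study describes them. Of the genes that this rule picks, 1 is not reported here.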

Additional observations from a re-analysis of the deposited data

How the results depend on the processing

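limma called 0 ligands in each of its 4 versions, of which 3 were added after the data were seen. DESeq2 called 1 ligand, *Pdgfc* (log2 difference 7.26), and 1 feedback inhibitor, *Nf1*. The counts of called receptors, carriers, kinases and other ligands were 0 under all 15 alternatives. *Pdgfc* kept its direction under the 12 alternatives that could test it, between 5.17 with a pseudocount of 5 and 7.83. Wherever the filter was used, *Pdgfc* passed it through the Trf1flox/flox libraries alone. Its direction was then fixed in advance, so nothing is read from this agreement. Without any 1 of the Trf1flox/flox libraries it fell under the filter on low values, so that no value could be given. Left-out libraries moved the difference of *Egf* between -0.18 and 0.45, and edgeR gave -0.0428 and DESeq2 -0.00940. The difference of *Egf* was negative without Trf1+/+ replicate 1 (-0.09), Trf1+/+ replicate 3 (-0.18), Trf1flox/flox replicate 1 (-0.04) or Trf1flox/flox replicate 2 (-0.07). The difference of *Pdgfd* lay between -1.77 and 3.25 and that of *Vegfb* between -0.30 and 2.11. *Fgf1*, *Igf1* and *Pdgfa* stayed negative, with *Pdgfa* at -0.06 without Trf1+/+ replicate 2. The number of tested ligands whose groups were apart was 2 after upper quartile scaling and 0 to 2 when a library was left out. It was 0 without Trf1flox/flox replicate 2 or 3, where *Pdgfc* was no longer tested. The cause of these changes was not tested. The median over all genes was 0.35 after upper quartile scaling and -0.02 without Trf1+/+ replicate 1. No paired analysis was possible because the labels carry no replicate numbers, and the numbers used here only name the libraries. Values of at most 3 reads, which occur in every library, limit what can be said of the genes concerned.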
